A study of Larimichthys crocea with 2 samples.

Results

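The genes described here code for the antioxidant and glutathione enzymes of skeletal muscle in Larimichthys crocea, the large yellow croaker farmed for food in coastal China. They were taken from the deposited expression table by their protein names, namely thioredoxins, peroxiredoxins, glutaredoxins, glutathione enzymes, superoxide dismutases, catalase, sulfiredoxin, glutamate--cysteine ligase, methionine sulfoxide reductases, metallothionein, heme oxygenases and selenoproteins. The names matched 83 of 22321 genes, and no gene named metallothionein was found (0 genes). Thioredoxin domain-containing protein 5, a protein disulfide isomerase of the endoplasmic reticulum, was kept out of the set; it had 26.5 RPKM in the fasted and 19.1 RPKM in the control library. The name rule also reaches proteins that only carry a thioredoxin-like fold or a selenocysteine, and it misses the phospholipid hydroperoxide glutathione peroxidases, which are given beside their relatives.

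Cells remove hydrogen peroxide and lipid peroxides through peroxiredoxins and glutathione peroxidases, and repair oxidised protein thiols and methionines with thioredoxin, glutaredoxin and methionine sulfoxide reductases. The electrons come from NADPH, through thioredoxin reductase on one branch and through glutathione reductase and glutathione on the other. In vertebrates many of these genes are targets of the transcription factor Nrf2, which is held in the cytoplasm and marked for degradation by Keap1, and several of the enzymes carry selenocysteine in the active site.

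The study sequenced muscle mRNA, prepared from total RNA, of fish left without food for 21 days and of untreated control fish, with 1 library for each group. The labels give no age, sex, muscle region or number of fish behind a library. The deposited reads came to 26593839 in the fasted and 27519918 in the control library. With 1 library per group there is no spread between samples, so no test was possible and each difference below describes these libraries and is not shown to hold for fasting. Skeletal muscle fibre markers made up 25.3% of the reads of the fasted and 34.5% of the reads of the control library. By RPKM, skeletal muscle alpha-actin and a parvalbumin beta gene were the most abundant of them in both, so the tissue label fits the levels. The 20 most abundant genes took 43.9% of the fasted and 59.1% of the control reads. The median gene consequently stood 1.40-fold higher in the fasted library in the deposited RPKM, or 0.48 on the log2 scale. Ratios are therefore given as log2 of fasted over control RPKM, each plus 0.5, relative to that median gene. RPKM is the read number scaled by coding length and by library size, so levels can be set side by side between genes. Beside a ratio, a 95% interval from the recovered read counts covers counting error only. Because these are bulk samples, fewer cells of one type and less RNA per cell cannot be told apart in any of the values.

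Of the 83 genes, 62 reached a mean of 1 RPKM over both libraries and were compared. Of these, 12 were at least 2-fold higher in the fasted library, which is 19.4% of them against 16.1% of all 11417 genes compared. Another 12, again 19.4%, were at least 2-fold lower, against 16.6% of all genes. Both shares were near those of all genes, so by these counts the set did not stand apart from the transcriptome. The other 38 lay between the thresholds, 21 of them above the median gene and 17 below it. The median ratio of the 62 genes was 0.16, and the ratios ran between -4.60 and 3.22. Without the genes whose function lies elsewhere, such as thioredoxin-interacting protein and thioredoxin-like protein 4B, the median was 0.021. Of the lower genes 4 passed the filter through the control library alone, being under 1 RPKM in the fasted one, and so had to differ: microsomal glutathione S-transferase 1, theta-1 gene23446, transmembrane protein 2-B gene21645 and selenoprotein M. Only 17 of the 24 genes past 2-fold had their whole counting interval past it, 8 higher and 9 lower. These intervals were set on the centre of the RPKM ratios, and the count depends on that choice. Without centring, 23 genes were at least 2-fold higher, against 29.7% of all genes, and 8 were lower, against 8.88% of all genes. Of the 24 genes past 2-fold after centring, 4 then fell inside it, and 11 others came past it. The higher genes then made up 74.2% of those past 2-fold, instead of 50% after centring; over all genes these shares were 77.0% and 49.3%.

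**Figure D1:**
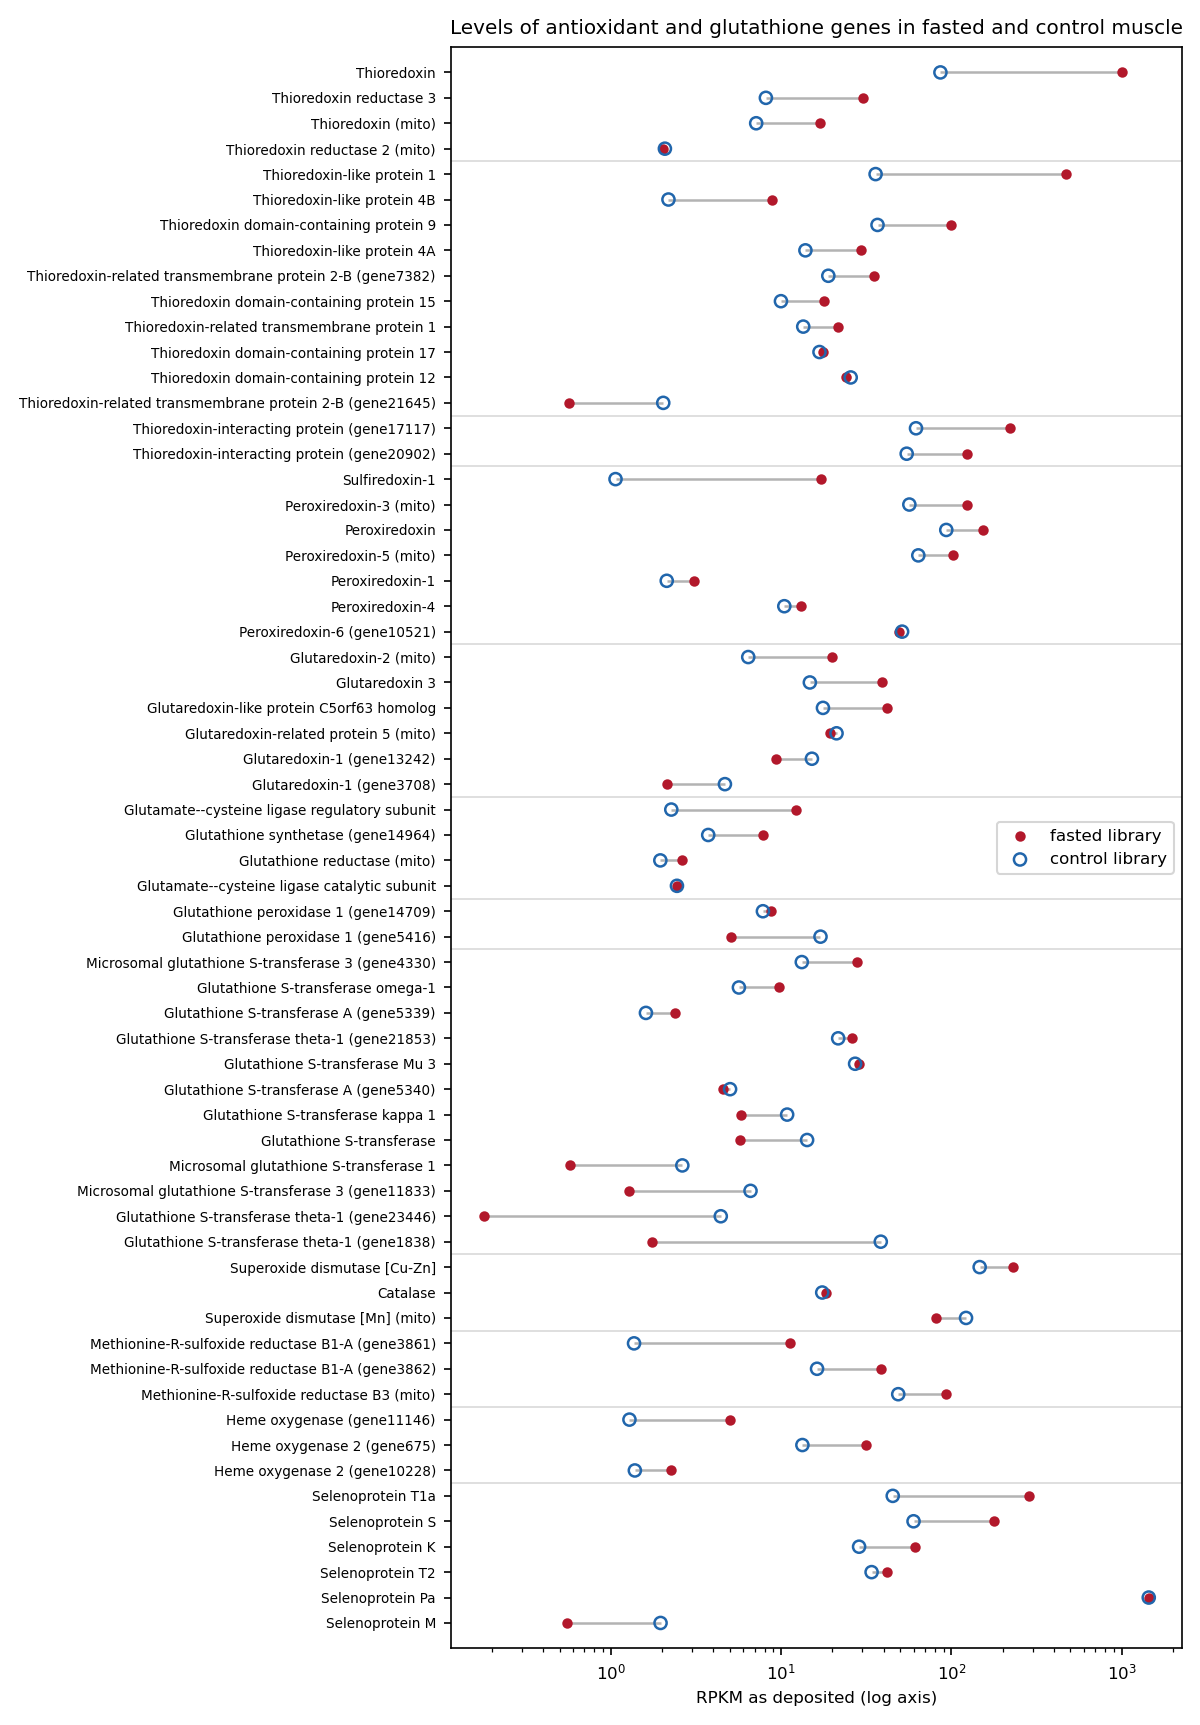
Deposited RPKM, on a log axis, of the 62 compared genes in the fasted library (filled points) and the control library (open points), in blocks by role and ordered by ratio within a block. Thioredoxin reached 1005 RPKM in the fasted library against 86.2 RPKM in the control, while selenoprotein Pa stood at 1439 and 1441 RPKM.

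Of all recovered reads, the set together took 99357 in the fasted and 62729 in the control library. These reads of the set were 0.374% (95% Wilson interval 0.371 to 0.376) and 0.228% (0.226 to 0.230) of the totals. Selenoprotein Pa, a secreted selenium carrier made mainly by liver in mammals, alone gave 34.2% of those reads in the fasted and 56.2% in the control library. Summed over the set, the RPKM came to 5393 in the fasted and 2927 in the control library, and to 3954 and 1486 without selenoprotein Pa. These shares and sums are not centred, and the median gene was itself higher in the fasted library. With the control levels raised by the median shift of 1.40-fold, the control sums were 4091 RPKM and, without selenoprotein Pa, 2077 RPKM. Levels above 100 RPKM were reached by 11 of the 83 genes in the fasted library and by 3 in the control, or 5 with the control levels so raised. Over all genes these numbers were 733 in the fasted and 465 in the control library, or 592 with the control levels so raised. As shares these were 13.3% of the set against 3.28% of all genes in the fasted library. In the control library they were 3.61% against 2.08%, or 6.02% against 2.65% with the levels raised.

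The 3 highest ratios of the set belonged to thioredoxin-like protein 1, thioredoxin and sulfiredoxin-1. Thioredoxin, the small protein that reduces disulfides and hands electrons to peroxiredoxins, had 1005 RPKM in the fasted library and 86.2 RPKM in the control, from 7540 and 669 reads. Its ratio was 3.05 (95% counting interval 2.95 to 3.18), which is 8.30-fold, and it ranked 63rd from the top of all genes compared. The gene, gene16964 in the files, lies on scaffold NW_011323324.1 at bases 284766 to 286012. By level it stood 134th among all genes in the fasted library and 519th in the control.

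Thioredoxin reductase returns oxidised thioredoxin to its reduced form with NADPH, and its genes did not follow a single pattern. Thioredoxin reductase 3, known in mammals as thioredoxin-glutathione reductase of testis, had 30.4 RPKM in the fasted and 8.14 RPKM in the control library, a ratio of 1.36 (1.26 to 1.58). The mitochondrial reductase 2 had 2.03 and 2.08 RPKM, a ratio of -0.51. The cytoplasmic reductase 1 stayed under the filter, with 6 reads in the fasted and 50 in the control library. Mitochondrial thioredoxin had 17.0 RPKM in the fasted and 7.14 RPKM in the control library, a ratio of 0.71 that stayed inside 2-fold. So the reductase gene with most reads was the one on the higher side, and the other reductase genes had few reads in either library.

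Among proteins with a thioredoxin-like fold, thioredoxin-like protein 1 had the highest ratio of the whole set on the RPKM scale. From the reads, sulfiredoxin-1 stood above it. In mammals thioredoxin-like protein 1 binds the proteasome cap and has thiol reductase activity. It had 474 RPKM in the fasted and 35.9 RPKM in the control library, from 10956 and 859 reads. The ratio was 3.22 (3.14 to 3.34), or 9.33-fold, the 43rd from the top of all genes compared. Gene22083 lies on scaffold NW_011324251.1 at bases 24110 to 30778. Thioredoxin-like protein 1 and thioredoxin were thus higher by a like amount. Thioredoxin-like protein 1 took 11.0% of the set's reads in the fasted and 1.37% in the control library, and thioredoxin 7.59% and 1.07%.

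Of the 13 genes of thioredoxin-like and thioredoxin-domain proteins, 10 were compared, 2 were at least 2-fold higher and 1 lower, with a median of 0.36. As shares these were 20% and 10%, against 16.1% and 16.6% of all genes compared. The second higher gene, thioredoxin-like protein 4B, is a splicing protein by its known relatives and no reductase; it had 8.86 RPKM in the fasted and 2.18 RPKM in the control library, from 106 and 27 reads. Its ratio of 1.32 had an interval of 0.92 to 2.21 that reached inside 2-fold. The single lower gene was 1 of 2 genes named thioredoxin-related transmembrane protein 2-B (gene21645), with 14 reads in the fasted and 52 in the control library and a ratio of -1.73 (-3.29 to -1.45). Its namesake gene7382 carried the higher level, 35.3 RPKM in the fasted and 18.9 RPKM in the control library, a ratio of 0.40. The other 6 were domain protein 9, a chaperonin cofactor by its relatives, at 0.93, thioredoxin-like protein 4A at 0.58, domain protein 15 at 0.33, transmembrane protein 1 at 0.17, domain protein 17 at -0.42 and domain protein 12 at -0.56. Thioredoxin domain-containing proteins 3, 11 and 16 stayed under the filter.

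Thioredoxin-interacting protein is an arrestin-like protein that binds reduced thioredoxin and lowers glucose uptake, and both of its genes were abundant. Gene17117 had 220 RPKM in the fasted and 62.0 RPKM in the control library, a ratio of 1.34 (1.27 to 1.42). Gene20902 had 124 and 54.6 RPKM, a ratio of 0.69 (0.62 to 0.78). Both genes were thus on the same side as thioredoxin, gene17117 past 2-fold and gene20902 inside it. Without centring gene20902 stood at 1.17, past 2-fold.

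Sulfiredoxin-1 returns overoxidised peroxiredoxins to their active form with ATP, and it stood apart from the peroxiredoxins themselves. It had 17.1 RPKM in the fasted and 1.07 RPKM in the control library, from 171 and 11 reads. The ratio was 3.01 (2.65 to 4.55), or 8.06-fold, ranking 69th from the top. Gene4884 lies on scaffold NW_011322537.1 at bases 860515 to 862829. The wide interval reflects the 11 control reads. The added 0.5 RPKM also pulls the ratio towards 0. From the reads sulfiredoxin-1 stood at 3.53, above thioredoxin-like protein 1 at 3.24.

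The compared peroxiredoxins, thiol peroxidases that are mostly recharged by thioredoxin, all lay inside 2-fold after centring. The 3 most abundant were the gene named peroxiredoxin (gene6733), with 153 RPKM in the fasted and 93.3 RPKM in the control library, the mitochondrial thioredoxin-dependent peroxide reductase (peroxiredoxin 3), with 124 and 56.6 RPKM, and mitochondrial peroxiredoxin-5, with 102 and 63.9 RPKM. Their ratios were 0.23, 0.64 and 0.19. Without centring peroxiredoxin 3 stood at 1.12, past 2-fold. Peroxiredoxin-1 stood at -0.04, the endoplasmic reticulum form peroxiredoxin-4 at -0.17 and peroxiredoxin-6 (gene10521), with 49.3 and 51.3 RPKM, at -0.54. A second peroxiredoxin-6 gene had 6 reads in the fasted and 1 in the control library. Over the 7 genes of this group compared, 1 was higher and 0 lower, and the median was 0.19. These were 14.3% and 0%, against 16.1% and 16.6% of all genes compared.

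Glutaredoxins use glutathione as electron donor, and some carry iron-sulfur clusters. Of 8 genes 6 were compared, 1 higher and 2 lower, with a median of 0.07. That is 16.7% and 33.3% of the 6, against 16.1% and 16.6% of all genes compared. Mitochondrial glutaredoxin-2 had 19.8 RPKM in the fasted and 6.41 RPKM in the control library, a ratio of 1.07 (0.75 to 1.55) just past 2-fold. Against the median of genes with at least 5 RPKM it came to 0.81 and was no longer past it. Both genes named glutaredoxin-1, a cytosolic form, were lower. Gene13242 had 9.37 RPKM in the fasted and 15.2 RPKM in the control library, a ratio of -1.15 (-1.60 to -0.77). Gene3708 had 2.14 and 4.68 RPKM, a ratio of -1.45 (-1.999 to -1.23). Neither reached 2-fold without centring, where they stood at -0.67 and -0.97. The RefSeq symbol of gene3708 is zgc:152951, which does not name a glutaredoxin. Its coding length was 1476 bases against 321 bases for gene13242, so the name glutaredoxin-1 is doubtful for gene3708. Glutaredoxin 3, an iron-handling form, stood at 0.89, the C5orf63-like glutaredoxin at 0.74 and the mitochondrial cluster-assembly protein glutaredoxin-related protein 5 at -0.61. The glutaredoxin domain-containing cysteine-rich proteins 1 and 2, known from hair cells, were listed at 0 RPKM in both libraries.

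Glutathione is made from glutamate, cysteine and glycine by glutamate--cysteine ligase, the rate-limiting step, and glutathione synthetase. The ligase's regulatory subunit, which raises the enzyme's affinity for its substrate, had 12.2 RPKM in the fasted and 2.27 RPKM in the control library, from 270 and 52 reads. Its ratio was 1.71 (1.51 to 2.40); gene14695 lies on scaffold NW_011323090.1 at bases 214822 to 220005. The catalytic subunit had 2.43 and 2.45 RPKM, a ratio of -0.49. By first-exon FPKM, a readout described further on, it had 1.51 FPKM in the fasted and 0.377 FPKM in the control library, a ratio of 0.75, so its side of the median gene depended on the readout. Glutathione synthetase (gene14964) had 7.78 RPKM in the fasted and 3.73 RPKM in the control library, a ratio of 0.49, and glutathione reductase, which restores glutathione from its disulfide, had 2.60 and 1.95 RPKM, a ratio of -0.14. The median of these 4 genes was 0.17.

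Glutathione peroxidases reduce peroxides with glutathione. Glutathione peroxidase 1, the main cytosolic selenoenzyme of vertebrates, had 2 genes. Gene5416 had 5.09 RPKM in the fasted and 17.0 RPKM in the control library, from 78 and 270 reads, a ratio of -2.13 (-2.61 to -1.86). Gene14709 had 8.75 and 7.82 RPKM, a ratio of -0.33. In the control library gene5416 was thus the more abundant of the pair per length and in the fasted library gene14709 was. Glutathione peroxidases 2 and 6 were listed at 0 RPKM in both libraries, and peroxidases 3 and 7 had at most 17 reads. Outside the name rule, both mitochondrial phospholipid hydroperoxide glutathione peroxidase genes, looked up after the results were known, were expressed more strongly, gene13908 with 75.7 RPKM in the fasted and 39.6 RPKM in the control library and gene14730 with 56.8 and 21.1 RPKM. Their ratios of 0.44 and 0.92 were inside 2-fold, as was glutathione peroxidase 8 at -0.65.

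The glutathione S-transferases, which join glutathione to reactive compounds, were the role group with the lowest median among those with more than 2 genes compared. Of 15 genes 12 were compared, none (0) was at least 2-fold higher, 6 were lower, and the median was -0.97. Without centring 1 was higher and 5 lower, with a median of -0.48. Over all genes compared, 16.1% were higher and 16.6% lower after centring, and 29.7% and 8.88% without it. Among the lower transferases, microsomal transferase 1 and theta-1 gene23446 passed the filter through the control library alone and so had to differ. Their entry also lowers the median of the group. Glutathione S-transferase theta-1 (gene1838) had the lowest ratio of the whole set on the RPKM scale. It had 1.75 RPKM in the fasted and 38.5 RPKM in the control library, from 34 and 772 reads. Its ratio of -4.60 (-5.48 to -4.44) amounts to a 24.2-fold difference and ranked 42nd from the bottom of all genes compared. It lies on scaffold NW_011322455.1 at bases 636073 to 639738.

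A second theta-1 gene, gene23446, had 4 reads in the fasted and 102 in the control library. Its ratio was -3.34 on the RPKM scale, where the added 0.5 RPKM pulls a level this low towards 0, and -5.11 (-7.01 to -3.71) from the reads. From the reads gene1838 stood at -4.94, so the order of these genes turned. The third theta-1 gene, gene21853, had 26.2 RPKM in the fasted and 21.6 RPKM in the control library, a ratio of -0.21. In the control library gene1838 was the most abundant of the theta-1 genes per length, and in the fasted library gene21853 was.

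Microsomal glutathione S-transferases, membrane proteins that also reduce lipid peroxides, divided in the same way. Microsomal transferase 3 gene11833 had 1.29 RPKM in the fasted and 6.61 RPKM in the control library, a ratio of -2.48 (-3.63 to -2.13), whereas gene4330 had 27.9 and 13.2 RPKM, a ratio of 0.57. Microsomal transferase 1 had 7 reads in the fasted and 33 in the control library, a ratio of -2.02 (-4.09 to -1.47). Of the cytosolic forms, the gene named only glutathione S-transferase (gene2259) had 5.74 and 14.2 RPKM, a ratio of -1.72 (-2.13 to -1.46). The kappa 1 form, mitochondrial and peroxisomal in mammals, had 5.80 RPKM in the fasted and 10.8 RPKM in the control library, a ratio of -1.33 (-1.73 to -1.05) that was -0.85 without centring. Mu 3, an abundant cytosolic form in both libraries, had 28.7 and 27.2 RPKM, a ratio of -0.41, and the omega-1, A gene5339 and A gene5340 forms stood at 0.26, -0.03 and -0.60. Summed over all 15 genes the level was 115 RPKM in the fasted and 152 RPKM in the control library.

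Blood and connective tissue markers were lower alongside these genes, while macrophage and neutrophil markers were not. For the marker counts that follow, the shares over all genes compared were 16.1% at least 2-fold higher and 16.6% lower. Of 16 blood markers 10 were compared and all 10 were at least 2-fold lower in the fasted library, 3 of which had passed the filter through the control library alone, with a summed level of 45.6 RPKM in the fasted and 580 RPKM in the control library. Of 7 connective tissue markers 5 of the 6 compared were lower, with sums of 151 and 739 RPKM. Of the blood markers 6 were listed at 0 in the fasted library and 1 of these, a hemoglobin alpha-1 gene, in both. Of 7 genes matching the adipocyte names 3 were compared and 1 was lower, the lipid droplet protein CIDE-3, which passed the filter through the control library alone, with 0.203 RPKM in the fasted and 66.1 RPKM in the control library. The sums of that list were 33.1 and 109 RPKM, and adiponectin itself was listed at 0 in both. Of 23 liver markers 2 were compared and both were lower, 1 of them passing the filter through the control library alone, with sums of 2.41 RPKM in the fasted and 9.49 RPKM in the control library. Of 20 macrophage and neutrophil markers 4 were compared, all inside 2-fold with a median of 0.54 and sums of 14.99 and 7.45 RPKM. Of these 4, 2 passed the filter through the fasted library alone, both macrophage mannose receptor 1 genes, with ratios of 0.78 and 0.60. The other compared markers of that list stood at 0.48 and -0.41. Of 55 fibre markers 43 were compared, 2 were higher and 28 lower. Slow troponin I gene2739, which passed the filter through the control library alone, had 0.0692 RPKM in the fasted and 158 RPKM in the control library. Cardiac troponin T gene1736 had 5.74 and 431 RPKM. Parvalbumin beta gene3144 had 355 and 54808 RPKM. Fast troponin I gene14839 had 2167 RPKM in the fasted and 145 RPKM in the control library. The other fast troponin I genes compared were all at least 2-fold lower, among them gene14836 with 1631 and 10849 RPKM. Slow troponin I gene1589, inside 2-fold, had 10.2 and 4.87 RPKM. A difference in fibre type or muscle region between the libraries was not tested. Of the 43, 2 passed the filter through the control library alone and 1 through the fasted library alone. The part of these markers in the lower transferase and peroxidase values was not tested.

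**Figure D2:**
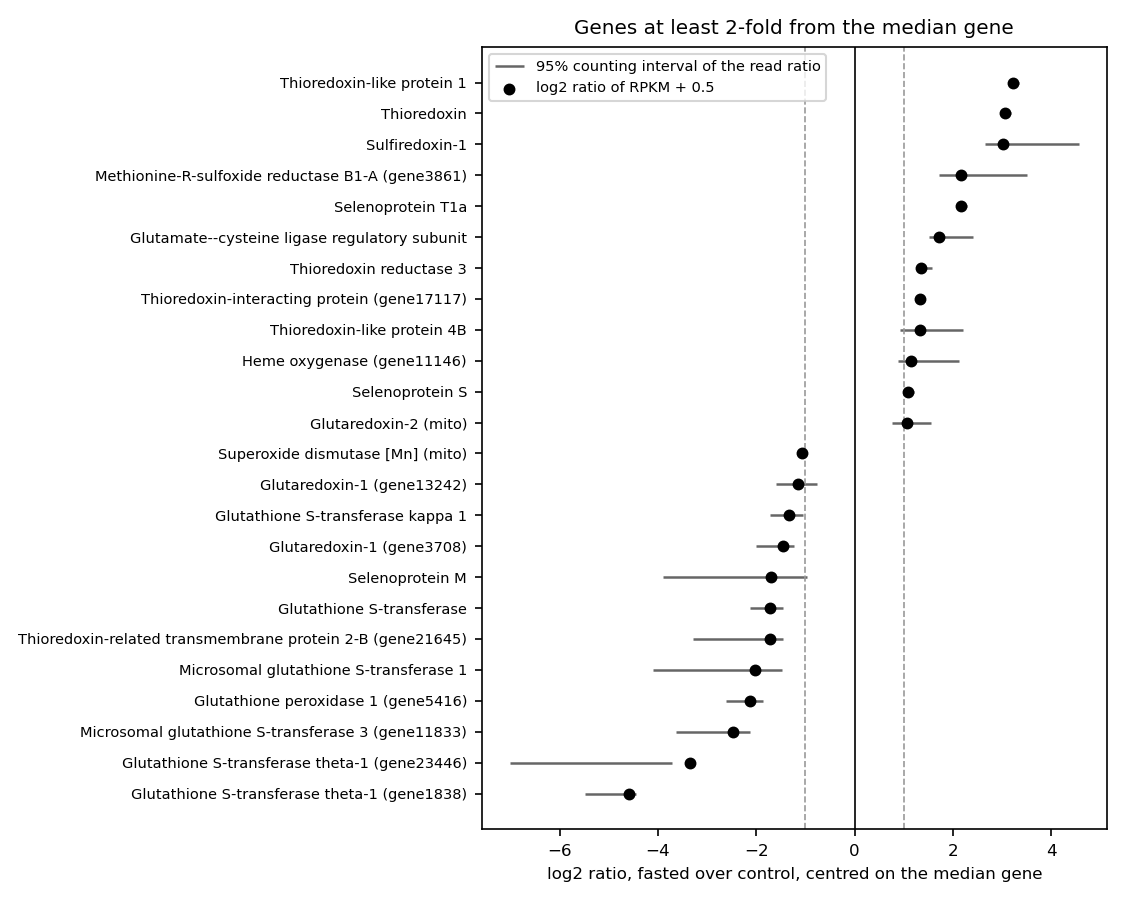
Log2 ratio of fasted over control RPKM plus 0.5, relative to the median gene, for the 24 genes at least 2-fold from it (points), with the 95% counting interval of the read ratio (lines); dashed lines mark 2-fold. With the intervals set on the centre of the RPKM ratios, those of 17 genes lie wholly past 2-fold. The point of theta-1 gene23446 lies outside its own interval because 0.5 RPKM was added to both levels.

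Superoxide dismutases turn superoxide into hydrogen peroxide, which catalase splits. Of these 3 genes 0 were higher and 1 lower, or 0% and 33.3%, against 16.1% and 16.6% of all genes compared. Cytosolic superoxide dismutase [Cu-Zn] had 228 RPKM in the fasted and 147 RPKM in the control library, a ratio of 0.16. Mitochondrial superoxide dismutase [Mn] had 81.4 and 122 RPKM, a ratio of -1.06 (-1.16 to -0.97) that was -0.58 without centring. The copper-zinc form was the more abundant in both libraries and the manganese form had its lower level in the fasted one. Catalase, the peroxisomal hydrogen peroxide enzyme, had 18.5 and 17.4 RPKM, a ratio of -0.40.

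Methionine sulfoxide reductases repair oxidised methionine, and all 3 genes compared had a positive ratio. Of the 3 genes named methionine-R-sulfoxide reductase B1-A, gene3861 had 11.2 RPKM in the fasted and 1.37 RPKM in the control library, from 103 and 13 reads, a ratio of 2.17 (1.72 to 3.51). Its neighbour gene3862, 1016 bases away on the same strand, had 38.7 and 16.3 RPKM, a ratio of 0.74. The mitochondrial or endoplasmic reticulum form B3 had 92.9 and 48.7 RPKM, a ratio of 0.44. The remaining B1-A gene had 3 reads in the fasted and 1 in the control library, and B2 was listed at 0 and 0.193 RPKM.

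Heme oxygenase breaks heme down to biliverdin, iron and carbon monoxide. The gene named heme oxygenase that passed the filter, gene11146, carries the RefSeq symbol hmox1b. It had 5.004 RPKM in the fasted and 1.29 RPKM in the control library, from 109 and 29 reads, and its ratio of 1.14 (0.87 to 2.12) came to 0.96 with 1 RPKM added instead of 0.5. The constitutive heme oxygenase 2 had 31.6 and 13.3 RPKM in gene675, a ratio of 0.73, and 2.27 and 1.38 RPKM in gene10228, a ratio of 0.07. A second gene named heme oxygenase had 11 reads in the fasted and 17 in the control library.

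Of 9 genes named as selenoproteins 6 were compared, 2 were higher and 1 lower, and the median was 0.20. These counts were 33.3% and 16.7% of the 6, against 16.1% and 16.6% of all genes compared. Selenoprotein T1a, a thioredoxin-like oxidoreductase of the endoplasmic reticulum, had 284 RPKM in the fasted and 45.2 RPKM in the control library, from 4534 and 747 reads. The ratio was 2.15 (2.06 to 2.28), and gene1994 lies on scaffold NW_011322458.1 at bases 1830306 to 1833902. Its relative selenoprotein T2 had 41.9 and 33.99 RPKM, a ratio of -0.19. The levels of T1a and T2 were close in the control library and differed several-fold in the fasted library.

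Selenoprotein S, which takes part in the export of misfolded proteins from the endoplasmic reticulum, had 178 RPKM in the fasted and 59.9 RPKM in the control library, a ratio of 1.08 (0.98 to 1.198). Against the median of genes with at least 5 RPKM this was 0.82, inside 2-fold. Selenoprotein K, its partner in the same pathway in mammals, had 61.0 and 28.7 RPKM, a ratio of 0.59. Selenoprotein Pa, the most abundant gene of the set, had 1439 and 1441 RPKM, a ratio of -0.49 (-0.51 to -0.46), so its deposited level was nearly equal while the median gene was higher. Selenoprotein M (gene8347), for which RefSeq has the symbol selenoe, had 6 reads in the fasted and 22 in the control library and a ratio of -1.71 (-3.90 to -0.96). Selenoproteins H and N stayed under the filter and Pb was listed at 0 RPKM in both libraries. The 19 genes of the set that carry selenocysteine in other vertebrates gave 12 compared, 4 higher and 2 lower. These were 33.3% and 16.7% of the 12, against 16.1% and 16.6% of all genes compared. The higher ones were selenoproteins T1a and S, thioredoxin reductase 3 and methionine-R-sulfoxide reductase B1-A gene3861. The lower ones were glutathione peroxidase 1 gene5416 and selenoprotein M, which passed the filter through the control library alone.

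**Figure D3:**
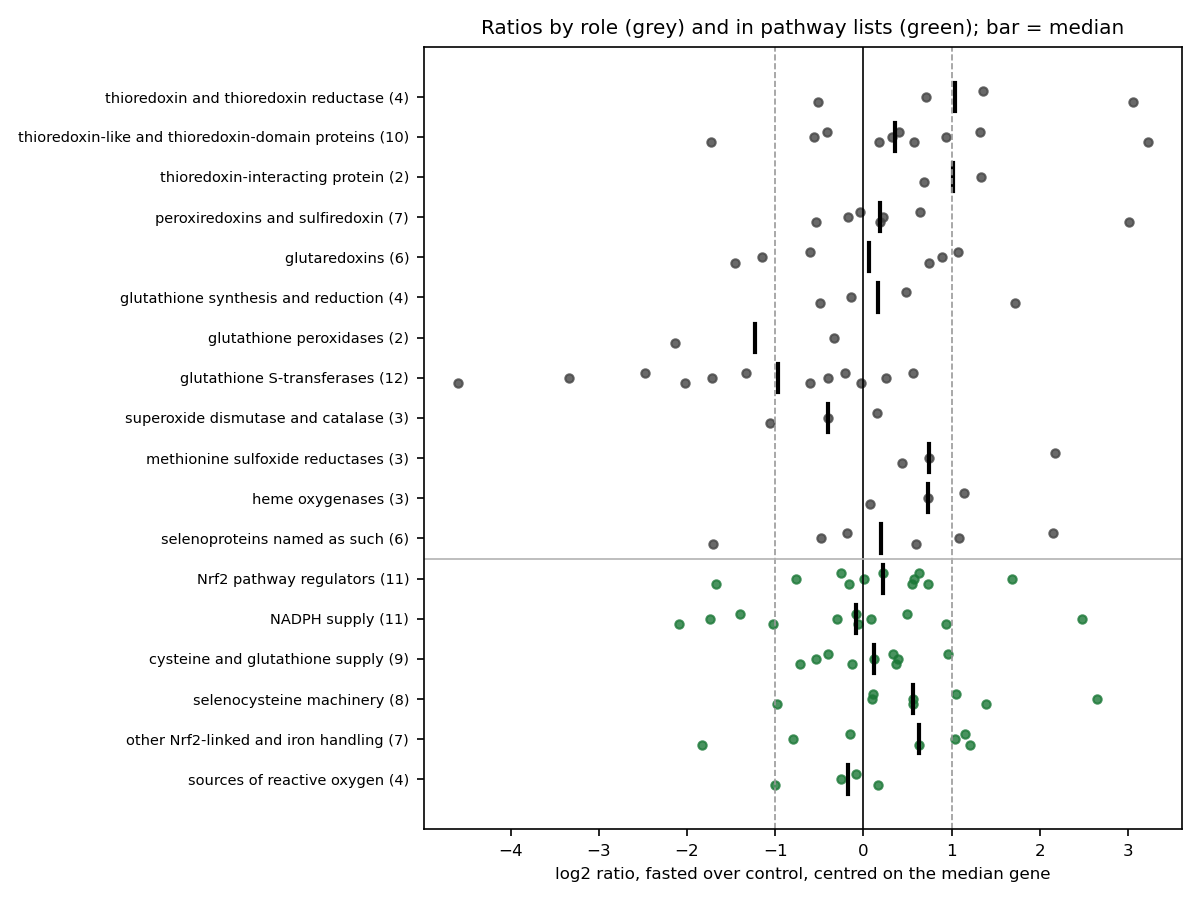
Log2 ratio of fasted over control RPKM plus 0.5, relative to the median gene, for each compared gene by role (grey points) and for the pathway lists (green points), with the median of each as a bar and the number compared in brackets; dashed lines mark 2-fold. The glutathione S-transferases have a median of -0.97 with 6 of 12 genes at least 2-fold lower. Of these, microsomal transferase 1 and theta-1 gene23446 passed the filter through the control library alone. The selenocysteine machinery has a median of 0.56.

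In all, 12 protein names were shared by several genes, 28 genes in total, and namesakes often differed. The counting may have divided reads among near-identical copies, so values of single copies are less sure than those of genes with a name of their own. The compared copies were furthest apart for glutathione S-transferase theta-1, with a difference of 4.38 on the log2 scale between the highest and the lowest ratio. Microsomal glutathione S-transferase 3 followed with 3.04, thioredoxin-related transmembrane protein 2-B with 2.13, glutathione peroxidase 1 with 1.80 and methionine-R-sulfoxide reductase B1-A with 1.42. The genes named glutaredoxin-1, of which gene3708 bears the name doubtfully, differed by 0.31 and the thioredoxin-interacting protein genes by 0.65. Among neighbours, 3 glutathione S-transferase A genes form an array with gaps of 3257 and 749 bases, and the gene named glutathione S-transferase lies 41513 bases from the catalytic subunit of glutamate--cysteine ligase. The strand setting of the counting was not given in the sources used here, so reads of overlapping or antisense genes cannot be told apart.

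**Figure D4:**
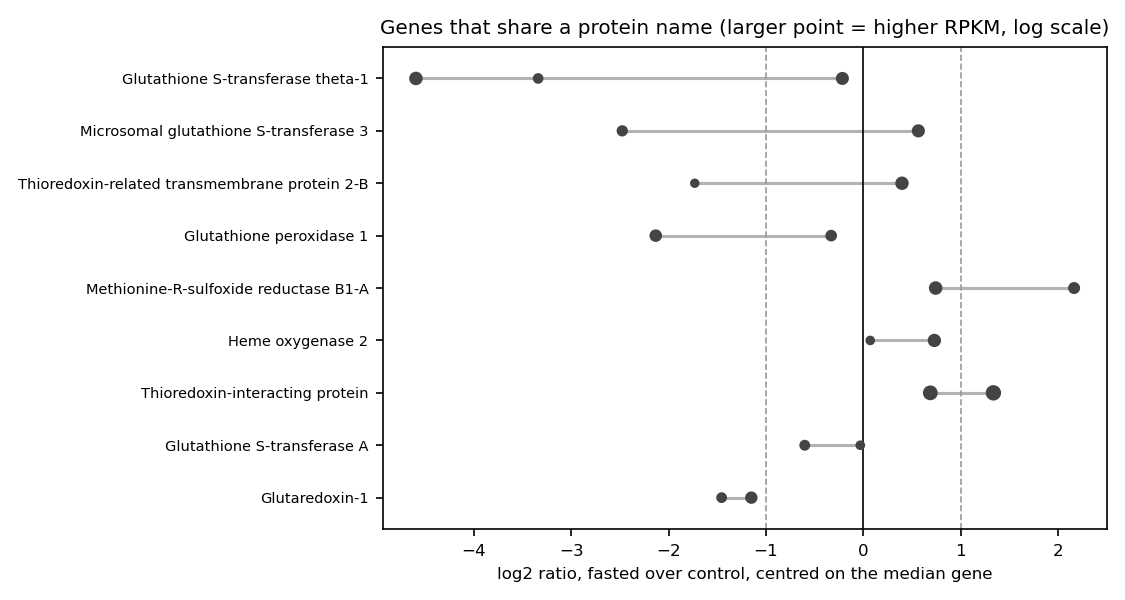
Log2 ratio of fasted over control RPKM plus 0.5, relative to the median gene, for genes that share a protein name and of which at least 2 were compared. Each point is a gene, and its area grows with the log of its RPKM in the library where it was higher. Theta-1 glutathione S-transferases span 4.38 and the genes named glutaredoxin-1 span 0.31 on the log2 scale.

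Files of splicing events gave a separate readout, the FPKM of the transcripts that begin at each first exon. For 49 of the 62 genes a first exon was listed in both libraries. By these values 11 genes, 22.4%, were at least 2-fold higher, against 20% of all genes with such values, and 12, or 24.5%, were lower, against 17.4%. Of the 11 genes higher by RPKM that had first exons, 10 were also past 2-fold here, and of the 11 lower ones 10. Sulfiredoxin-1 had 23.6 FPKM in the fasted and 1.79 FPKM in the control library, and theta-1 gene1838 had 1.87 and 48.3 FPKM. The exceptions were heme oxygenase gene11146 with a ratio of 0.35 and glutathione peroxidase 1 gene5416, which was listed at 0 FPKM in both. Another 3 genes were past 2-fold by first exon only. They were thioredoxin-interacting protein gene20902, at 1.05 against 0.69, transferase A gene5340, at -1.15 against -0.60, and selenoprotein K. The side of the median gene turned for 5 genes, 0 of them past 2-fold by RPKM. Selenoprotein K had 85.9 FPKM in the fasted and 367 FPKM in the control library, a ratio of -2.54 against 0.59 by RPKM. The others were the catalytic subunit of glutamate--cysteine ligase, at 0.75 against -0.49, theta-1 gene21853, at 0.49 against -0.21, transferase omega-1, at -0.22 against 0.26, and selenoprotein T2, at 0.097 against -0.19. Both readouts come from the same reads, so their likeness is no replicate.

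Internal splicing events were listed for 6 of the 62 genes in the fasted library, 9.68% against 23.3% of all genes compared, and for 3 in the control library, 4.84% against 21.7%. In methionine-R-sulfoxide reductase B3 (gene22818) a 116-base exon was included at 10.02 FPKM and skipped at 19.9 FPKM in the fasted library, and included at 5.04 and skipped at 13.3 FPKM in the control. The included form was thus 33.5% of the event in the fasted and 27.5% in the control library. Left out of these shares is a form that skips both this exon and the next one, of 144 bases. That form was listed at 0 FPKM in the fasted and at 8.77 FPKM in the control library. Counting it would lower the included share in the control library only. Skipping of the 144-base exon after an included 116-base exon was listed at 0 FPKM in both. Thioredoxin-interacting protein gene20902 kept a pair of introns in 28.4% of the event's FPKM in the fasted and 27.8% in the control library. For gene17117 a retained intron was listed in the fasted library only, at 118 FPKM with and 59.6 FPKM without the intron; an event is listed only where it was called, so its share in the control is not known.

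The authors' deposited table, which holds 74 of the 83 genes, called 27 of them up, or 36.5% against 30.3% of its genes, and 13 down, or 17.6% against 14.5%. Its calls rest on the same pair of libraries, and how they were made was not given. The authors' deposited table called up all 12 genes that were at least 2-fold higher here and called down 9 of the 12 lower ones. It also called up 12 compared genes that lay inside 2-fold here after centring, and called down 0 such genes. Another 7 genes that it called stayed under the filter. Every gene of the set that it called was at least 2-fold apart in its log2 ratios, which are not centred. Genes 2-fold higher after centring lay further past that size, so this overlap was largely fixed in advance. The lower genes not called were superoxide dismutase [Mn], glutaredoxin-1 gene13242 and transferase kappa 1. Their log2 ratios by the authors were -0.58, -0.69 and -0.90.

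Lists of the surrounding pathway put these values in context. Beside their counts, 16.1% of all genes compared were at least 2-fold higher and 16.6% lower. Of 15 genes of the Nrf2 control system 11 were compared, 1 was higher and 1 lower, and the median was 0.22. Keap1, the adaptor that marks Nrf2 for degradation, had 16.5 RPKM in the fasted and 3.26 RPKM in the control library in gene11137, a ratio of 1.69; its other gene stood at 0.57. Nrf2 itself had 11.4 and 26.7 RPKM, from 565 and 1366 reads, a ratio of -1.67. Sequestosome-1, an autophagy receptor that binds Keap1, had 71.0 and 30.2 RPKM, a ratio of 0.74, and the most abundant Nrf1 gene, with 22.9 and 10.3 RPKM, stood at 0.63. In mRNA level, then, Keap1 gene11137 was higher and Nrf2 lower in the fasted library.

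NADPH feeds both branches. The list for its supply held 16 genes, among them transketolase and transaldolase, which make no NADPH themselves. Of the 16 genes 11 were compared, 1 was higher and 4 lower, with a median of -0.08. Glucose-6-phosphate dehydrogenase, the entry of the pentose phosphate pathway, had 150 reads in the fasted and 1 in the control library in gene1677, or 3.56 and 0.0229 RPKM, a ratio of 2.47. It passed the filter through the fasted library alone and so had to differ. Its other gene4628 had 1.22 and 2.75 RPKM, a ratio of -1.40. Further along that pathway, 6-phosphogluconate dehydrogenase had 4.40 and 6.66 RPKM, a ratio of -1.03, transketolase 8.74 and 21.6 RPKM, a ratio of -1.74, and transaldolase 3.17 and 10.7 RPKM, a ratio of -2.09. Mitochondrial NADP-dependent isocitrate dehydrogenase was by far more abundant, with 1122 and 570 RPKM and a ratio of 0.49, and mitochondrial malic enzyme, with 57.1 and 21.0 RPKM, stood at 0.94. The lower genes of the list were thus all of the pentose phosphate pathway, while the compared mitochondrial NADPH genes lay inside 2-fold. The same pathway also held the higher gene1677, and 6-phosphogluconolactonase at 0.09.

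All 8 genes listed for making, inserting and breaking down selenocysteine were compared, 3 were higher and 0 lower, and the median was 0.56. The higher share was 37.5%, against 16.1% of all genes compared. O-phosphoseryl-tRNA(Sec) selenium transferase, which makes selenocysteine on its tRNA, had 18.7 RPKM in the fasted and 1.69 RPKM in the control library, from 727 and 68 reads, a ratio of 2.65. Selenide, water dikinase 2, the source of activated selenium, had 76.6 and 26.1 RPKM, a ratio of 1.05. Selenocysteine lyase, which breaks selenocysteine down, had 4.61 and 0.896 RPKM, a ratio of 1.39. The lyase passed the filter through the fasted library alone and so had to differ, and it is counted in the 37.5%. The insertion-sequence-binding protein 2-like gene had the lowest ratio of the list, -0.98.

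Of 19 genes for cysteine and glutathione supply 9 were compared and none (0) passed 2-fold in either direction; the ratios ran between -0.72 for cystathionine beta-synthase and 0.96 for gamma-glutamyltransferase 5. Of 12 further Nrf2-linked and iron-handling genes 7 were compared, 3 higher and 1 lower. Ferritin heavy subunit gene4255, an iron store, had 2236 RPKM in the fasted and 778 RPKM in the control library, a ratio of 1.04, and ferritin heavy chain gene14844 had 26.7 and 7.91 RPKM, a ratio of 1.21. Carbonyl reductase 1, with 77.4 and 24.6 RPKM, stood at 1.15, and the middle subunit of ferritin at -0.80. Biliverdin reductase A, which acts after heme oxygenase, had 23 reads in the fasted and 76 in the control library, a ratio of -1.83. Of 21 genes for enzymes that produce reactive oxygen 4 were compared, 0 were higher and 1, peroxisomal acyl-coenzyme A oxidase 3 gene23081, was lower at -1.005.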

How the data were processed

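The values are RPKM, RPM, FPKM and fold tables that the authors deposited for 1 fasted and 1 control muscle library. The RPKM per gene were computed by the authors. The submitters' processing notes list HTSeq, TopHat, TopHat2 2.0.12 and SAMtools 0.1.19; their roles, the genome build and the annotation were not given in the sources used here. RPM per gene, a ratio, its log2 and p-values come from the authors' deposited comparison table, and FPKM per splicing event from deposited event files made with Cufflinks identifiers, per the file headers. The p-values were not used. The files were assigned to libraries by the sample titles in their columns and names.

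All RPM steps gave whole reads (100% of 16599 fasted and 16725 control values within 0.1 read), so reads per gene were recovered; with 1 library per group no count test was possible. RPKM lengths are coding lengths, of which 92.1% of 6830 checked are multiples of 3. The log2 ratio of RPKM plus 0.5 was centred on the median of genes averaging at least 1 RPKM, and 2-fold was the size for a call. Intervals of read ratios are exact Clopper-Pearson intervals at 95%, and intervals of shares are Wilson intervals. Read ratios given for single genes and their intervals were set on the RPKM centre of 0.483. The median of the read ratios was 0.555, so bounds near 2-fold depend on that choice. The floor is 3 reads, 0.113 RPM in the fasted and 0.109 RPM in the control library. RefSeq symbols were found for 54 of the 83 genes. All compared genes of the set are named, with both levels where they passed 2-fold, were among the 10 most abundant or shared a name with one that passed; other genes come by up to 3 at each end of their list, with every gene past 2-fold in the Nrf2 and NADPH lists. The genes and lists were chosen with earlier results of these data known. Computations used Python 3.11.15, numpy 2.4.6, pandas 2.3.3 and scipy 1.17.1, and the ratio and intervals were tested on simulated counts.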

Additional observations from a re-analysis of the deposited data

How the results depend on the processing

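The count of 12 higher and 12 lower genes and the median of 0.16 stayed within 1.5 times or 0.1 with 0.1 or 1 RPKM added, with recovered reads in place of RPKM, and with scaling without the 20 most abundant genes. With no filter on low values 23 genes were higher and the median was 0.29, and as deposited, without centring, 23 were higher and the median was 0.65; in both the reference is no longer the median expressed gene. With a mean of at least 5 RPKM 6 genes were lower, with 48 compared. At 1.5-fold 21 genes were higher and at 3-fold 6. Without genes of other function, such as thioredoxin-interacting protein and thioredoxin-like protein 4B, the median was 0.021. No compared gene past 2-fold changed direction under these settings. First-exon FPKM was chosen as an alternative after seeing the data. No paired analysis was possible because each group has 1 library, and for the same reason no library could be left out. Depth limits the genes with few reads, such as theta-1 gene23446, microsomal transferase 1 and selenoprotein M, whose intervals span several units of log2.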
